A study of Rattus norvegicus with 6 samples.

Results

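Glypicans and syndecans are the main families of heparan sulfate proteoglycans on the cell surface. They were examined here as mRNA in cultured neural progenitors of the rat. The 10 genes, *Gpc1* to *Gpc6* and *Sdc1* to *Sdc4*, were chosen by their symbols for their differences in mRNA level between the biological replicates, which were known when the families were picked. Those differences are therefore given as a description and without a test. Of the 10 genes, 9 had a row in each table, among 17337 gene names in all, and *Gpc6* was not analysed here. The cells were taken from cortices of Sprague Dawley rats at embryonic day 14, of either sex, and were grown without other treatment on coated dishes in medium with 20 ng/ml bFGF and 20 ng/ml EGF until the second passage. PolyA-selected RNA of 2 biological replicates, A and B, was sequenced as 2 technical libraries each, named A1, A2, B1 and B2. There was 1 condition and no control group. The 2 Start-seq samples of the study were not analysed here.

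Both families consist of a core protein that carries long sulfated sugar chains. Glypicans are held to the outer leaflet of the membrane by a lipid anchor, while syndecans cross the membrane and end in a short cytoplasmic tail. Their heparan sulfate chains bind secreted signals such as FGF, Wnt, Hedgehog and BMP proteins, and bFGF needs heparan sulfate to bind its receptors well. In the embryonic brain they are known as coreceptors and modulators of growth factor signalling and of contact with the extracellular matrix.

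Levels are in FPKM, which corrects fragment numbers for transcript length and for the size of the library, so that different genes can be set side by side. Differences between replicates are of log2(FPKM + 1), by which changes of low genes come out too small. A gene was called different between the replicates when its mean was at least 1 FPKM, the replicates differed by at least 1 on this scale, and the libraries of A and B did not overlap. Library B2 had 28.1% of the depth of B1, judged by its coverage per FPKM. Over the 9 genes the deposited coverage, the mean read depth over a gene's transcripts, ranged from 93.2 to 2544 in A1, A2 and B1 and from 35.5 to 603 in B2. Total read numbers were not used, so no counting interval is given.

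The label of the cells was compared with marker genes. Of 9 cortical neural progenitor markers with a row, each had a mean above 10 FPKM, from 13.2 FPKM for *Emx2* to 11840 FPKM for *Fabp7*. The 6 ventral forebrain markers were also present, with *Nkx2-1*, a transcription factor gene of the ventral forebrain, at a mean of 80.5 FPKM, so the markers do not mark the cultures as cortical alone. The 5 endothelial and 5 microglial markers each had a mean below 1 FPKM, although *Aif1* reached 1.204 FPKM and *Cdh5* 1.002 FPKM in B2, and *Cx3cr1* was listed at 0 in 3 libraries. The 9 mesenchymal and meningeal markers with a row summed to between 666 and 689 FPKM in the libraries of A and to between 2533 and 3075 FPKM in those of B. Of these 9, 8 were called higher in B and 0 in A, against 4.78% and 1.42% of all genes. Their median difference was 1.91 on the log2 scale, and none was at 0 in any library. The median was 1.60 without B2, where the difference of *Tbx18*, a marker of this list, fell from 1.25 to 0.89, under the threshold.

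The difference between the replicates was largest, among the members, for *Gpc3*. *Gpc3* encodes a glypican known for restraining growth of the embryo, and its loss causes an overgrowth syndrome in humans. It lies on the minus strand of chromosome X of rn6 from 139579268 to 139947093. Its level was 3.83 FPKM in A1, 4.52 FPKM in A2, 51.5 FPKM in B1 and 52.6 FPKM in B2. The libraries of each replicate were close to each other, and those of A and B did not overlap. The mean of B was 12.5 times that of A, a difference of 3.36, against 0.19 for A2 minus A1 and 0.03 for B2 minus B1. Of the 10481 genes that passed the filter on the mean, 4 were higher in B by at least this amount, *Gpc3* included.

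*Gpc4*, another glypican gene, known for roles in FGF signalling and at synapses, is the next gene of the tables beside *Gpc3* and has the same strand. It extends from 139354379 to 139464833 on chromosome X, and 114 kb separate the ends of the genes. Its level was 34.2 FPKM in A1, 37.7 FPKM in A2, 48.9 FPKM in B1 and 66.9 FPKM in B2. Both libraries of B were above both of A, but the difference of 0.67 did not reach the threshold and was 0.43 without B2. *Gpc4* was thus 1.61 times higher in B, while its neighbour was 12.5 times higher.

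The 250 bases before the annotated transcription start of *Gpc3* and *Gpc4* are shown because these neighbours differed so unequally. Those of *Sdc1* are shown because it was also called higher in B. The windows and their starts were taken from RefSeq (build GRCr8, not the build of the tables). The paper reports that its Start-seq data moved many RefSeq starts of rn6. The starts used here were not checked against Start-seq. The windows are written 5′ to 3′ on the strand of the gene, with GC boxes, the motif GGGCGG on either strand, in capitals. Their positions are chrX:137157599-137157848 for *Gpc3* (minus strand), chrX:136676058-136676307 for *Gpc4* (minus strand) and chr6:37281791-37282040 for *Sdc1* (plus strand).
Gpc3: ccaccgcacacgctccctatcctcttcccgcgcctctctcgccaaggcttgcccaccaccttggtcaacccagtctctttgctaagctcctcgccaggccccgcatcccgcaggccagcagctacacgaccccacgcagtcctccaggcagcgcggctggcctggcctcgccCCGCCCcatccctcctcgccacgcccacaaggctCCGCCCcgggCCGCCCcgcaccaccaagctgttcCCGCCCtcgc
Gpc4: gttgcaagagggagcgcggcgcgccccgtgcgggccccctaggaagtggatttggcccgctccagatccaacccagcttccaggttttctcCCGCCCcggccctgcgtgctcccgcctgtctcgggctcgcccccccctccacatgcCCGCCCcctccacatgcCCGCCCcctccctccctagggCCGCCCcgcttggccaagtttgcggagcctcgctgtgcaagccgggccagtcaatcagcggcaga
Sdc1: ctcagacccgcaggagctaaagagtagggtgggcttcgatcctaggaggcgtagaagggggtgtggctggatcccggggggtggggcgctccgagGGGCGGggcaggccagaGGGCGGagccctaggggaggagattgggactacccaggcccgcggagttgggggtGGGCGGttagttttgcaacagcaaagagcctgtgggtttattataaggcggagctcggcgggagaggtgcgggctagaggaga

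Promoters of 7 members were found in the RefSeq set by symbol. All 7 held at least 1 GC box, against 30.5% of 33469 promoters of this length. *Gpc3* and *Gpc4* each had 4 GC boxes, a GC content of 71.6% and no match to CCAAT or TATAA, and *Gpc3* had 22 CG dinucleotides where *Gpc4* had 21. The median over all promoters was a GC content of 51.2% with 5 CG dinucleotides. The motif CCAAT, searched on both strands, was found in 2 of the 7 (*Gpc2* and *Sdc1*) and in 34.02% of all promoters. TATAA was found in 2 of the 7 (*Sdc1* and *Sdc4*) and in 24.0% of all. The E-box letters CANNTG were found in 3 of the 7 (*Gpc2*, *Gpc4* and *Sdc3*) and in 65.5% of all, with 2 matches in *Gpc4* and 0 in *Gpc3*. Motifs were searched independently and may overlap. These matches describe the letters of the window and were not tested against the mRNA levels.

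The genes on either side of *Gpc4* and *Gpc3* were at low levels. *Hs6st2*, which encodes a heparan sulfate 6-O-sulfotransferase and so acts on the same chains, lies 382 kb from *Gpc4* and had 0.380 and 0.535 FPKM in the libraries of A and 0.874 and 1.90 FPKM in those of B. Its libraries of B lay above those of A, by a difference of 0.71, but its mean was under 1 FPKM, so it was not examined for a call. *MGC114492* had at most 0.0614 FPKM, and *Usp26* was listed at 0 in each library. On the other side, the miRNA genes *Mir363*, *Mir92a2* and *Mir19b2*, 170 kb from *Gpc3*, were listed at 0 in each library.

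*Gpc5* encodes a glypican that is expressed in the developing nervous system, and it is the longest of the 9 genes, with 1494 kb on chromosome 15, plus strand, 100283131 to 101776838. It had 10.3 FPKM in A1, 10.96 FPKM in A2, 4.07 FPKM in B1 and 5.19 FPKM in B2. *Gpc5* was the lowest member by the mean and the only glypican called higher in A. The difference of -1.05 was just inside the threshold, and the level in A was 2.30 times that in B. Without B1 the difference was -0.91 and the call was lost. The coverage of *Gpc5* was 35.5 in B2 and between 99.1 and 250.2 in the other libraries.

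The *Gpc5* locus resembles that of *Gpc3* in that a cluster of miRNA genes lies beside it. *Mir92a1*, *Mir19b1* and *Mir20a* lie between 102 and 103 kb before *Gpc5*, where *Mir92a2* and *Mir19b2* lie near *Gpc3*. Mature sequences of these miRNA genes are shown because miR-92a-3p and miR-19b-3p are encoded at both loci, beside miR-363-3p at that of *Gpc3* and miR-20a-5p at that of *Gpc5*. They are from RefSeq (GRCr8, chromosomes 15 and X), written 5′ to 3′ with the seed, bases 2 to 8, in capitals.
rno-miR-92a-3p (from *Mir92a1* and *Mir92a2*): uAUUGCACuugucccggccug
rno-miR-363-3p (from *Mir363*): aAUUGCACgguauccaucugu
rno-miR-19b-3p (from *Mir19b1* and *Mir19b2*): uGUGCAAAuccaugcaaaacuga
rno-miR-20a-5p (from *Mir20a*): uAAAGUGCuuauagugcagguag

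miR-92a-3p is the same mature sequence at both loci and shares its seed with miR-363-3p, and miR-19b-3p is also encoded at both. In the tables *Mir92a1* had 0.910 and 0.638 FPKM in the libraries of A and 0.185 and 0.0338 FPKM in those of B. *Mir20a* and *Mir19b1* were below 1 FPKM in A1, A2 and B1 and were listed at 0 in B2. These levels come from polyA-selected RNA and do not measure mature miRNA. On the other side of *Gpc5* the next genes of the tables begin 1542 kb away. *Tgds*, which encodes a nucleotide sugar dehydratase, had 40.1, 33.2, 35.7 and 18.2 FPKM in A1, A2, B1 and B2. *Tgds*, *Gpr180* and *Abcc4* were not called different.

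The levels of *Gpc1* and *Gpc2* differed less between the replicates. *Gpc1*, a glypican gene abundant in the brain and a coreceptor for FGF2, is encoded on the plus strand, chromosome 9, 99998275 to 100026818. It had 104.6 FPKM in A1, 109.4 FPKM in A2, 97.7 FPKM in B1 and 88.2 FPKM in B2, a mean of 99.99 ± 9.95 FPKM (SD, n = 2). It was the highest member in each library, and its libraries of B lay below those of A by a difference of -0.20, which was -0.13 without B2. The row of *Ppp1r7*, on the same strand, covers the whole of *Gpc1* in the tables, with 14.9 to 20.9 FPKM, and reads of the 2 genes were not told apart further here. *Gpc2*, a glypican gene of developing neurons and their axons, is encoded on the minus strand, chromosome 12, 19593041 to 19599374. It had 82.1 FPKM in A1, 60.9 FPKM in A2, 55.2 FPKM in B1 and 43.4 FPKM in B2. The difference of -0.53 between the replicates was near that between the technical libraries of A (-0.43) and of B (-0.34), and it was -0.30 without A1.

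**Figure D1:**
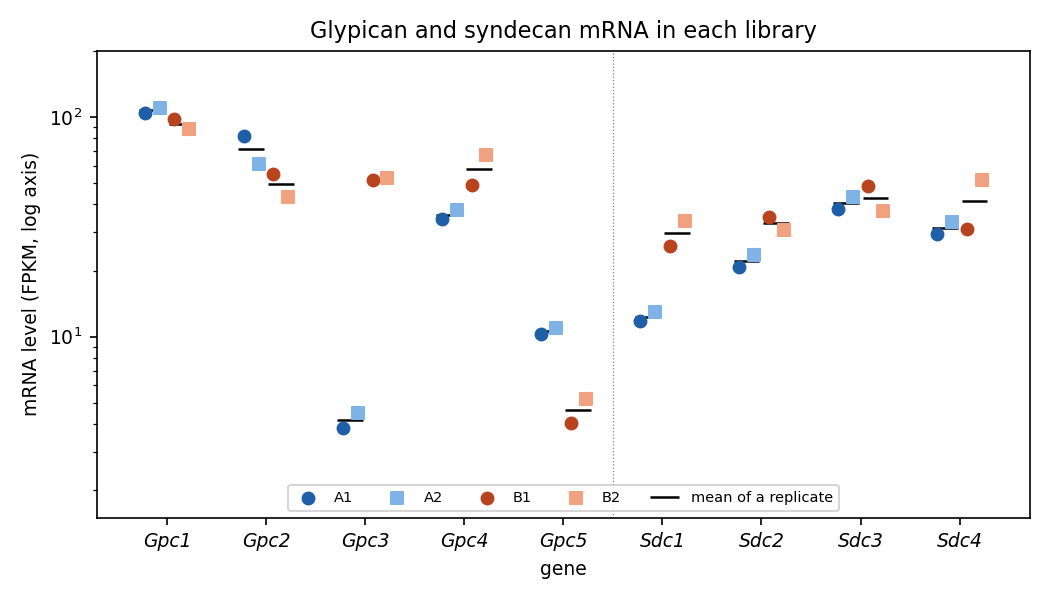
mRNA level of the 5 glypican and 4 syndecan genes in FPKM on a log axis, with a circle or square for each of the libraries A1, A2, B1 and B2 and a line for the mean of the technical libraries of a replicate. *Gpc3* stands at 3.83 and 4.52 FPKM in A and at 51.5 and 52.6 FPKM in B, while *Gpc1* is the highest gene in each library.

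Among the syndecans *Sdc1* was called different. *Sdc1*, known as the syndecan of epithelia and plasma cells and present in neural progenitors of the embryo, is encoded on the plus strand, chromosome 6, 33885576 to 33908038. Its level was 11.7 FPKM in A1, 12.9 FPKM in A2, 25.99 FPKM in B1 and 33.5 FPKM in B2. The libraries did not overlap, and the mean of B was 2.41 times that of A, a difference of 1.204. The difference between technical libraries was 0.13 in A and 0.35 in B. Without B2, the library of lower depth, it was 1.02.

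*Sdc2*, a syndecan gene typical of mesenchymal cells and also found at dendritic spines, is encoded on the plus strand, chromosome 7, 71572731 to 71685040. It had 20.8 and 23.6 FPKM in the libraries of A and 35.2 and 30.5 FPKM in those of B. Both libraries of B were above those of A, and the difference of 0.54 was under the threshold.

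*Sdc3*, the syndecan known best from neural tissue and a receptor of pleiotrophin, is encoded on the plus strand, chromosome 5, 148923098 to 148956404. It had 37.9 and 43.4 FPKM in the libraries of A and 48.4 and 37.4 FPKM in those of B. Its libraries overlapped, the difference was 0.07, and it became -0.12 without B1 and changed sign without A1 as well. *Sdc3* was the member with the smallest spread, 41.8 ± 1.55 FPKM (SD, n = 2).

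*Sdc4*, a syndecan gene of focal adhesions, is encoded on the minus strand, chromosome 3, 160872503 to 160891190. It had 29.4 and 33.1 FPKM in the libraries of A, 31.0 FPKM in B1 and 51.8 FPKM in B2. Its libraries overlapped, and the difference of 0.40 rested on B2, without which it was -0.01.

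**Figure D2:**
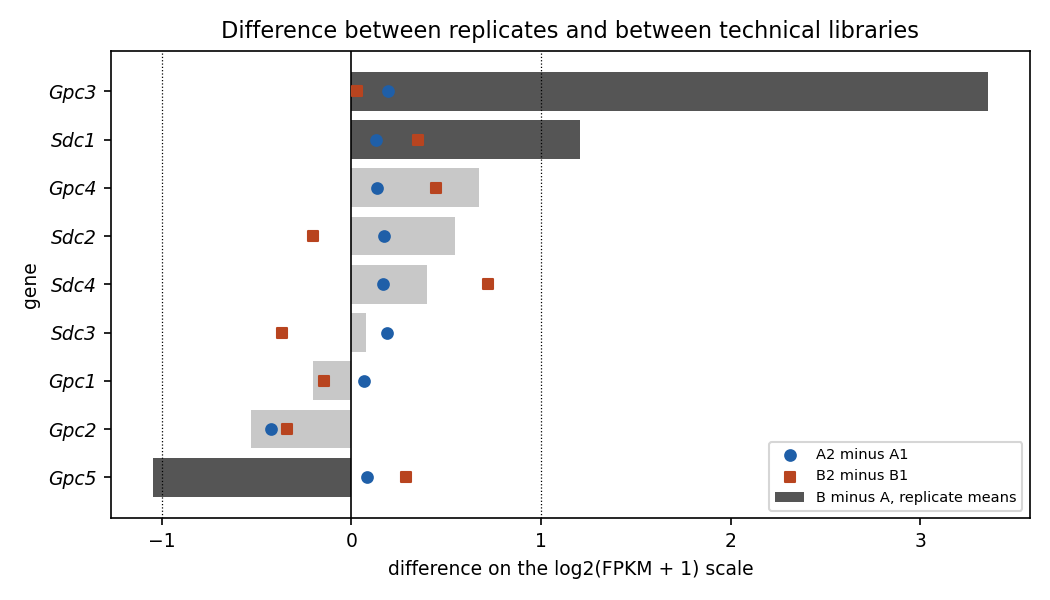
Bars give the difference of replicate B minus replicate A for each gene on the log2(FPKM + 1) scale, dark for genes called different, with circles for A2 minus A1, squares for B2 minus B1 and dotted lines at -1 and 1. *Gpc3* (3.36) and *Sdc1* (1.204) lie above the threshold and *Gpc5* (-1.05) below its negative, and for *Sdc4* and *Sdc3* a square lies farther from 0 than the bar ends.

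In all, 3 of the 9 members were called different, *Gpc3* and *Sdc1* higher in B and *Gpc5* higher in A. Over all 10481 genes above the minimum the share called was 6.2%, with 4.78% higher in B and 1.42% higher in A. The members were chosen on this difference, so their share is not read against the background. All 9 members passed the filter of a mean of at least 1 FPKM. The median difference was 0.40 over the 9 members and -0.03 over all 10481 genes, and 6 of the 9 had a higher mean in B. Without B2 the median over the members was 0.24 and 5 of the 9 were higher in B. The libraries of A and B did not overlap for 7 of the 9 members and for 60.1% of all genes. *Gpc4* was the member just outside the threshold, and a threshold of 0.58 would call it as well.

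By mean level the members ranged from *Gpc1* at 99.99 ± 9.95 FPKM to *Gpc5* at 7.63 ± 4.24 FPKM (SD, n = 2). The order between them was *Gpc2* at 60.4 ± 15.7, *Gpc4* at 46.9 ± 15.5, *Sdc3* at 41.8 ± 1.55, *Sdc4* at 36.3 ± 7.21, *Gpc3* at 28.1 ± 33.8, *Sdc2* at 27.5 ± 7.52 and *Sdc1* at 21.0 ± 12.3 FPKM. Of the 8 steps between neighbours in this order, the step from *Gpc1* to *Gpc2* and that from *Sdc1* to *Gpc5* exceeded the SD of both genes and had the same direction in each library. The other 6 steps did not exceed the larger SD of the neighbours. Members farther apart in the order could still differ, as *Gpc2* and *Sdc3* were each above *Sdc2* and *Sdc1* in each library, with means that differed by more than the larger SD. *Gpc3* could not be placed against the members from *Gpc2* to *Gpc5*, since its SD exceeded its distance to each of them. In replicate A *Gpc3* was in place 9 of 9 and *Gpc5* in place 8, and in replicate B *Gpc3* was in place 3 and *Gpc5* in place 9. Among all 17337 gene names *Gpc1* ranked 1066 and *Gpc5* 7284 by the mean, and *Gpc3* ranked 8402 in A and 2128 in B.

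The FPKM of the 5 glypicans summed to 235 and 223 in the libraries of A and to 257 and 256 in those of B. The sum was 243 ± 19.5 FPKM (SD, n = 2), and the means of A and B differed by 27.5 FPKM, which is smaller than the difference of *Gpc3* alone. Without *Gpc3* the sum was lower in B, with 231 and 219 FPKM in A and 206 and 204 FPKM in B. *Gpc3* made up 1.82% of the glypican sum in A and 20.3% in B. The share of *Gpc1* was 46.7% in A and 36.2% in B, and that of *Gpc2* was 31.2% in A and 19.2% in B.

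The 4 syndecans summed to 99.9 and 113.0 FPKM in the libraries of A and to 141 and 153 FPKM in those of B, which did not overlap. The syndecan sum was 1.38 times higher in B, and the glypican sum 1.12 times. *Sdc1* made up 11.6% of the syndecan sum in A and 20.2% in B, and *Sdc3* 38.2% in A and 29.2% in B. The glypican sum exceeded the syndecan sum in each library, by 1.67 to 2.35 times.

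**Figure D3:**
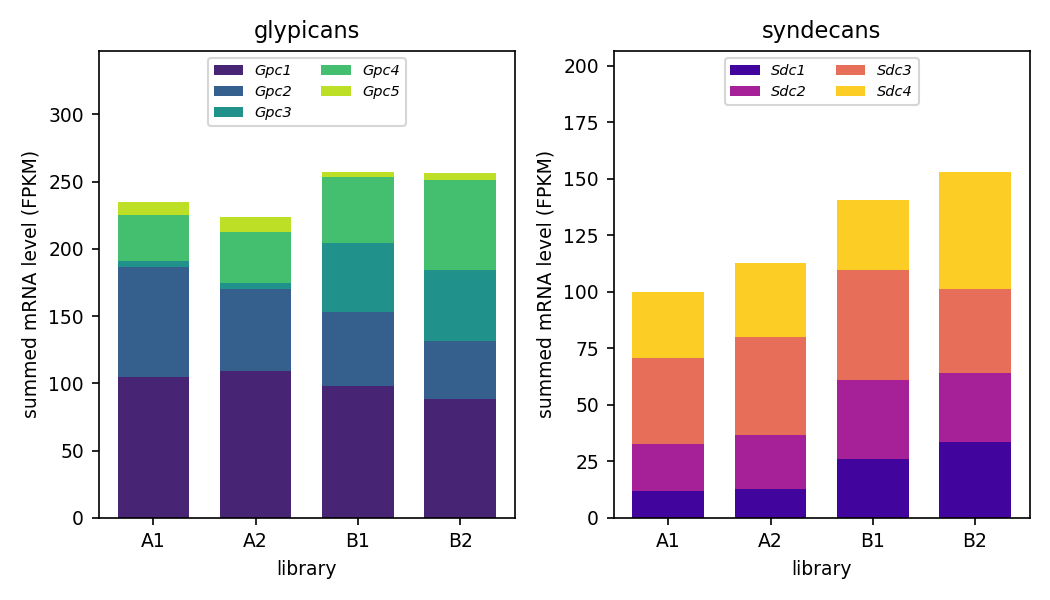
Stacked bars of FPKM summed over the glypican genes (left) and the syndecan genes (right) in each library, with a colour for each gene. The glypican bars reach 223 to 257 FPKM with a *Gpc3* segment that is 1.63% to 2.02% of the bar in A and 20.0% to 20.5% in B, and the syndecan bars of B are above those of A.

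The higher levels of *Gpc3* and *Sdc1* in B stood beside higher mesenchymal and meningeal markers. *Col1a1*, a fibrillar collagen gene, had 169 and 157 FPKM in the libraries of A and 685 and 785 FPKM in those of B. *Dcn*, which encodes the matrix proteoglycan decorin, had 41.8 and 42.8 FPKM in A and 207 and 217 FPKM in B. *Foxc1*, a transcription factor gene of the meninges, had 14.2 and 14.1 FPKM in A, 29.4 FPKM in B1 and 115 FPKM in B2. The ratio of B to A was larger for *Gpc3* than for any of these markers on the log2 scale, where the markers had differences of up to 2.34. Their part in the result was not tested. In RNA of a whole culture, fewer cells of a type and less RNA per cell cannot be told apart.

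Of 7 neuron markers 5 had a mean of at least 1 FPKM, with a median difference of -0.35. Of these 5, 0 were called, against 6.2% of all genes, a share at which so few genes give few calls. A higher mean in B was found for 1 of them, against 46.8% of all genes. *Pdgfra*, a receptor gene of oligodendrocyte precursors that is also found in mesenchymal cells, had 9.50 and 9.09 FPKM in A and 59.5 and 59.4 FPKM in B. *Olig1*, a transcription factor gene of the oligodendrocyte lineage, had 172 and 195 FPKM in A, 523 FPKM in B1 and 237 FPKM in B2 and was called higher in B as well. Of 6 markers of this lineage 4 had a mean of at least 1 FPKM. All 4 had a higher mean in B, with a median difference of 0.77. *Sox10* and *Cspg4* were below 1 FPKM in each library. Both libraries of B were below those of A for *Sox10* and above them for *Cspg4*. The values of *Olig1* and *Olig2* rested on B1, while *Pdgfra* had a difference of 2.55 with or without B1 and *Mbp* one of 0.50, or 0.44 without B1. Without B1 the median was 0.40, *Olig2* had a difference of -0.45, and *Olig1* had one of 0.37 and lost its call, which was also lost without A1. The part of this lineage in the levels of *Gpc3* and *Sdc1* was not tested. In the direction of *Gpc5*, 2 of 6 ventral forebrain markers, *Nkx2-1* and *Dlx1*, and 2 of 9 cortical neural progenitor markers, *Fabp7* and *Hes5*, were called higher in A, and 0 of either list in B. The difference of *Nkx2-1* was -1.07, and its call was lost without A1 (-0.98) or without B2 (-0.93), where *Gsx2* was called higher in A instead. The part of these cells in the level of *Gpc5* was not tested.

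The genes whose levels over the 4 libraries were most like those of *Gpc3* were sought among 6635 genes averaging at least 10 FPKM, by Euclidean distance on the log2 scale. With 4 libraries in 2 replicates this is a description of level and difference only. The nearest was *Fmo1*, which encodes a flavin monooxygenase, at a distance of 0.62 and with 5.57, 5.99, 62.6 and 52.8 FPKM in A1, A2, B1 and B2. *Gstm2* (distance 0.88), *Aard* (1.17), *Vtn* (1.19) and *Ptrf* (1.201) followed. *Vtn* encodes the adhesion protein vitronectin and had 4.86 and 4.59 FPKM in A, 22.6 FPKM in B1 and 53.9 FPKM in B2, and *Ptrf* encodes a coat protein of caveolae. Each of the 5 was higher in both libraries of B than in both of A, which the measure of likeness implies.

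Other genes act on the heparan sulfate chains or on the core proteins that carry them. Of 56 genes in 9 lists on heparan sulfate, 51 had a row and 38 passed the filter on the mean, of which 3 were called higher in B and 1 in A, and 26 had a higher mean in B. Their median difference was 0.12, against -0.03 over all genes, and it was 0.20 without B1. The 7 lists of chain linkage, chain polymerisation, N-sulfation, O-sulfation, sulfate supply, chain editing and core protein release held 25 of the 38 genes, and 0 of these were called, against 6.2% of all genes, a share at which so few genes give few calls. *Ndst2* was called without A2 or without B1, and *Mmp14* without A1 or without B1. The 0 listed in B2 carried the calls of *Ndst2*, whose difference was 0.08 without B2.

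Chains start on a linker that xylosyltransferases and further transferases build. In that list 5 genes had a row, from *B3galt6* at 2.42 FPKM to *B3gat3*, which adds the glucuronic acid of the linker, at 90.2 ± 1.62 FPKM (SD, n = 2). *B3gat3* had 89.9 and 92.9 FPKM in A and 100.02 and 78.2 FPKM in B, so its replicates overlapped. The chain is polymerised by *Ext1* and *Ext2*. *Ext1* was at 31.3 ± 1.03 FPKM and *Ext2* at 34.8 ± 9.19 FPKM (SD, n = 2), and both libraries of B were above those of A for *Ext2* only. Of the exostosin-like genes *Extl2* had 6.80 FPKM, *Extl3* 3.75 FPKM and *Extl1* 0.744 FPKM.

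The sulfation genes differed widely in level. *Ndst1*, which removes acetyl groups and adds N-sulfate, had 1.47 to 3.40 FPKM. *Ndst2*, an enzyme of the same family, had 21.5 and 16.5 FPKM in A and 20.1 FPKM in B1 but was listed at 0 in B2, so it is given by library only. *Hs2st1*, the 2-O-sulfotransferase gene, had 16.9 and 18.5 FPKM in A and 23.3 and 24.7 FPKM in B, and *Hs6st1* had 12.1 and 14.5 FPKM in A and 18.6 and 17.4 FPKM in B. These libraries did not overlap, but the differences of 0.42 and 0.41 were under the threshold. Of the 3-O-sulfotransferase genes *Hs3st1* was highest, at 5.64 FPKM, and *Hs3st2*, *Hs3st3a1*, *Hs3st5* and *Hs3st6* were below 1 FPKM. *Slc35b2*, which carries the sulfate donor into the Golgi, was at 61.4 ± 0.933 FPKM (SD, n = 2) and *Papss1*, which makes the donor, at 58.3 ± 3.80 FPKM.

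Genes that trim chains or release core proteins were led by *Sulf2* and *Mmp14*. *Sulf2*, which removes 6-O-sulfate outside the cell, had 63.1 ± 0.893 FPKM (SD, n = 2), while *Sulf1* had 0.910 FPKM. *Notum*, which has been proposed to cut glypicans from their anchor and is known to inactivate Wnt proteins, had 0.315 FPKM. *Mmp14*, a membrane metalloproteinase that sheds *Sdc1*, had 33.8 and 28.0 FPKM in A, 39.9 FPKM in B1 and 77.5 FPKM in B2. Its difference of 0.90 was under the threshold and was 0.36 without B2.

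Among the cytoplasmic partners of syndecans, *Sdcbp*, which encodes syntenin and binds the tail of syndecans, was highest at 291 ± 30.7 FPKM (SD, n = 2). *Ezr*, which encodes the membrane linker ezrin, was called higher in A, with 47.0 and 50.3 FPKM in A, 15.2 FPKM in B1 and 31.5 FPKM in B2. Its difference was -1.03, and the call was lost when A2 or B1 was left out.

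Among 7 other heparan sulfate proteoglycans with a row, 3 were called higher in B and 0 in A, against 4.78% and 1.42% of all genes. *Srgn* and *Tgfbr3* have means under 10 FPKM and are not called with a filter at that level. *Col18a1*, which encodes a basement membrane collagen that carries heparan sulfate, had 74.6 and 74.8 FPKM in A and 164 and 256 FPKM in B, a difference of 1.48. *Srgn*, a proteoglycan gene of secretory granules, had 0.450 and 0.687 FPKM in A, 2.87 FPKM in B1 and 7.18 FPKM in B2. *Tgfbr3*, which encodes betaglycan, had 0.939 and 0.711 FPKM in A, 1.78 FPKM in B1 and 5.73 FPKM in B2, and its call was lost without B2. *Agrn*, which encodes agrin, went in the other direction, with 179 and 128 FPKM in A and 107 and 73.7 FPKM in B, a difference of -0.76 under the threshold. Without B1 it was -1.05 and *Agrn* was called higher in A, and without A1 it was -0.49. *Spock3* (-0.70) and *Spock1* (-0.51) were also lower in both libraries of B and were not called. The median difference over the 7 genes was 0.01. The genes of this list, too, stand beside the higher mesenchymal and meningeal markers of B, whose part was not tested.

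**Figure D4:**
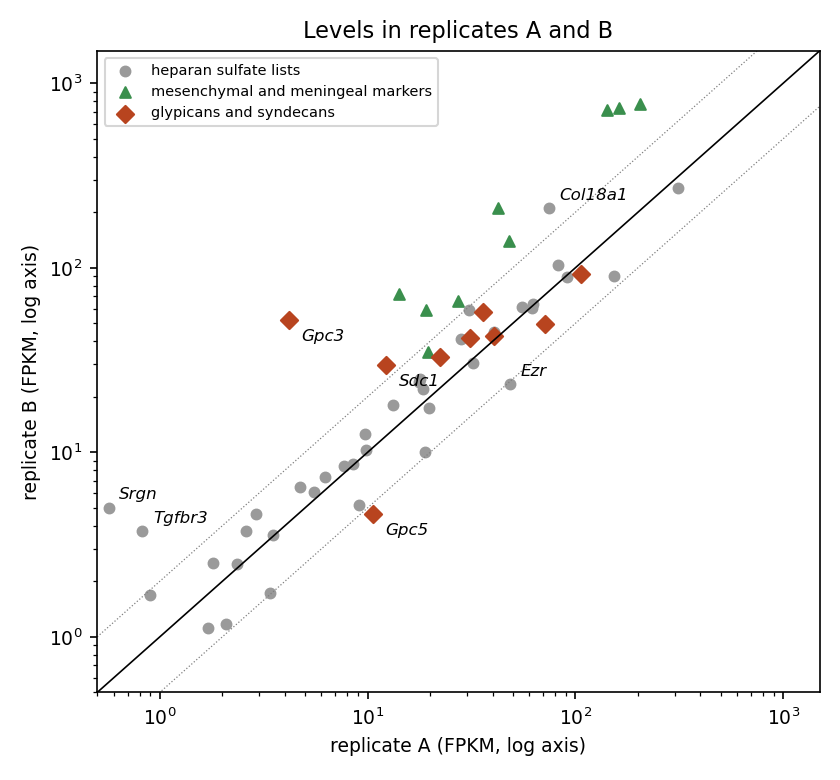
Mean FPKM of replicate A against that of replicate B on log axes for the 9 glypican and syndecan genes (diamonds), 38 genes of the heparan sulfate lists (circles) and 9 mesenchymal and meningeal markers (triangles), with a solid line at equal levels and dotted lines at a ratio of 2. *Gpc3* lies farthest from the solid line among the diamonds, and the labelled circles are the 4 list genes called different.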

How the data were processed

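PolyA RNA-seq tables of 4 libraries, grouped by the sample labels, were used. The authors aligned reads to rn6 with STAR, and the deposited tables have the layout of StringTie, while the study's methods name other tools, Rsubread among them, for FPKM. Which of these made the deposited FPKM was not settled. The FPKM, TPM and coverage values were made by the authors; versions are not given in the sources used here. The coverage signal per FPKM differed between libraries and was used as a measure of depth.

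FPKM was summed by gene name, and technical libraries were averaged within a replicate before the log2 was taken, with a pseudocount of 1. Means and SD are over 2 replicates, which allow no test between groups. The members and gene lists were chosen with earlier results of these data known. The genes named are the members, the called and highest genes of each heparan sulfate list, the 5 genes nearest to *Gpc3*, 3 neighbours on either side of the paired glypican loci, and markers that moved with a member. Further list genes and the motifs were named after their values were seen. The calling was also run on simulated data, whose outcome is not given here, so this does not show how reliable the calls above are. Alternatives were TPM, a pseudocount of 0.1, no filter or a mean of at least 10 FPKM, a threshold of 0.58, median-ratio scaling, each library left out and, added after seeing the data, averaging of logs and the lists with each library left out. *Gpc6*, *Xylt1*, *Glce*, *Hs3st4*, *Slc35b3*, *Hspg2*, *Sox1* and *Col6a1* were not analysed here. Computation used pandas 2.3.3, numpy 2.4.6 and matplotlib 3.10.9 under Python 3.11.15.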

Additional observations from a re-analysis of the deposited data

Results flagged for a closer look

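For 29 quantities it was asked whether the highest or lowest of the 4 libraries stood apart by Dixon's criterion, and this held for 2, both in B2. Chance gives about 1 in 20 for independent samples, and these libraries form technical pairs. *Sdc4* had 51.8 FPKM in B2 against 29.4 to 33.1 FPKM in A1, A2 and B1. The coverage that corresponds to 1 FPKM was 6.83 in B2 against 22.7 to 24.4 in the others. Whether the lower depth bears on the level of *Sdc4* was not tested.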

How the results depend on the processing

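There were 134 alternative values for 17 results. Of these, 128 stayed within the spread between technical libraries, for counts of calls within 1.5 times, or for the order of members the same. The other 6 did not. The spread comes from the same technical libraries, so leaving 1 of them out could hardly move a difference, sum or share beyond it. The share of *Gpc3* in a replicate also cannot change when a library of the other replicate is left out. Such values therefore do not show how stable these results are. With a pseudocount of 0.1 the difference of *Gpc3* became 3.61 in place of 3.36, as low values of A then weigh more. With TPM the glypican sum differed by 0.11 in place of 0.16 on the log2 scale. The number of heparan sulfate list genes called was 2 with the mean filter at 10 FPKM and 8 with a threshold of 0.58, in place of 4, and the number of all genes called was 331 and 1725, in place of 650. Of the 8 neighbouring pairs of members, between 6 and 8 kept the order of the mean when a library was left out, 7 without B1 and 6 without B2. *Gpc3*, *Gpc5* and *Sdc1* were called under each alternative except for *Gpc5* with the filter at 10 FPKM and without B1. The direction of *Sdc3* turned without A1 or B1 and that of *Sdc4* without B2. The depth of B2 and the 2 replicates limit all values, and the cause of the other changes was not tested. No paired analysis was possible because 1 condition was measured.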
